A study of Mus musculus with 22 samples.

Results

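The chemokine ligands and receptors of the mouse genome were followed in RNA from isolated pancreatic islets. Genes were taken by symbol, as those that start with Ccl, Cxcl, Cx3cl, Xcl, Ccr, Cxcr, Cx3cr or Ackr followed by a digit, without pseudogenes or antisense genes. This gave 61 of the 57010 genes in the deposited table. Of these, 26 reached 0.5 TPM in 5 or more libraries and are described here, 21 of them ligands and 5 of them receptors, and the other 35 are listed as silent. TPM is a transcript abundance per length, scaled to the same total (1000000) in every library, so levels of different genes can be set side by side.

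Each library held poly(A) RNA from the islets of 1 male mouse, 5.5 weeks of age. Mice were wild type (WT) for MafA, the beta cell transcription factor that activates the insulin genes, or heterozygous (Het) for its S64F form. Both genotypes were studied on a background called C57 and on one called Mixed, whose strains the labels do not name. WT groups had 5 mice each and Het groups 6 mice each, all of them untreated as far as the labels say. Library numbers run through the groups in order, so library order and group cannot be told apart.

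Chemokines are small secreted or membrane-tethered proteins that guide the migration of leukocytes. They act through G protein-coupled receptors, while atypical receptors (Ackr genes) bind and clear them without the usual signal. In islets they are made by endocrine cells, endothelium, stroma and resident macrophages, and they are best known there for the recruitment of immune cells in diabetes.

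Mafa itself was present at 362 to 571 TPM in the C57 WT and 440 to 775 TPM in the Mixed WT mice, and at 93.8 to 152 TPM and 95.2 to 199 TPM in the 2 Het groups, with no overlap between genotypes. Beta cell markers dominated every library, with a summed TPM of the 6 markers between 215587 and 443577. Genes at a TPM of 1 or more numbered 14812 to 16133 per library, and the correlation of log2(TPM + 1) within groups was 0.981 to 0.996. One Mixed Het library, replicate 5, stood apart in several chemokine genes. It also had the highest summed TPM among Mixed Het mice of pan-leukocyte markers (27.0 against 12.8 to 18.7), macrophage markers (368 against 172 to 206), dendritic cell markers (105 against 36.9 to 61.9) and mesenchymal markers (367 against 58.0 to 205). Chemokine counts on Mixed Het mice are given with and without it, and so are the chemokine genes whose call it changed and, where stated, lists.

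Chemokine RNA was a small part of the islet transcriptome and was made up mostly of ligands. The 39 ligand genes summed to 78.4 ± 9.50 TPM in WT and 64.04 ± 4.96 in Het mice of the C57 background, and to 108 ± 26.8 TPM in WT and 110 ± 17.8 in Het mice of the Mixed background (SD, n = 5 WT and 6 Het). The 22 receptor genes summed to 14.1 ± 4.16, 10.1 ± 1.49, 19.3 ± 1.19 and 19.95 ± 5.48 TPM in the same order. The highest mean levels over the 22 libraries belonged to Cx3cl1, Ccl4, Ccl27a, Ccl3 and Cxcl16, all ligands, followed by the atypical receptor Ackr3. Ligands with a silent receptor were common: Ccr1, a receptor of Ccl3, Ccl5 and Ccl9, did not exceed 0.828 TPM in any library, and Cxcr6, the receptor of Cxcl16, did not exceed 0.102. Ccr10, the receptor of Ccl27a and Ccl28, reached at most 0.391 TPM. In bulk RNA, fewer cells of a type and less RNA per cell cannot be told apart, and a receptor on a rare cell can have a low value.

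The start regions of 4 ligands are shown as examples chosen after their values were seen: Cxcl1, Cxcl2 and Ccl9, the 3 described genes whose start region holds the NF-kB motif, and Cxcl14, whose region holds an interferon motif and which differed between genotypes. The ligands Ccl19 and Ccl17, which hold motifs too and differed between the Het groups, are not printed. They are the 250 bases before the gene's start, from RefSeq on GRCm38.p6, a build other than the one used for the alignment (mm39), printed 5′ to 3′ on the gene's strand with the motif in capitals. Cxcl1 lies at chr5:90890995-90891244 (plus strand), Cxcl2 at chr5:90903649-90903898 (plus strand), Ccl9 at chr11:83578637-83578886 (minus strand) and Cxcl14 at chr13:56296552-56296801 (minus strand).
Cxcl1: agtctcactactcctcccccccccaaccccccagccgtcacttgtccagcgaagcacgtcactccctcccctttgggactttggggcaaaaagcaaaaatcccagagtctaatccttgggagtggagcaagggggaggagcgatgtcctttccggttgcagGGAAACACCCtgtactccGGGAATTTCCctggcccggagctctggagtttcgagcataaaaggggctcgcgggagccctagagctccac
Cxcl2: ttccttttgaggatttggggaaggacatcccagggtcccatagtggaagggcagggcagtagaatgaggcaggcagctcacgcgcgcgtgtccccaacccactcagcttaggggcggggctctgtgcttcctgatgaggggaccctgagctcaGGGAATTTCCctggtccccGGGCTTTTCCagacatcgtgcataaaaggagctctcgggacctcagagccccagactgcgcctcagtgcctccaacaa
Ccl9: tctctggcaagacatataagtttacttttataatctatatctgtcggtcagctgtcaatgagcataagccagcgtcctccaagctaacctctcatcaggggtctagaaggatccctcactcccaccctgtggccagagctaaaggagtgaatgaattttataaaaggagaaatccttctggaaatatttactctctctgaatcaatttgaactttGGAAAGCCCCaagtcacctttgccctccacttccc
Cxcl14: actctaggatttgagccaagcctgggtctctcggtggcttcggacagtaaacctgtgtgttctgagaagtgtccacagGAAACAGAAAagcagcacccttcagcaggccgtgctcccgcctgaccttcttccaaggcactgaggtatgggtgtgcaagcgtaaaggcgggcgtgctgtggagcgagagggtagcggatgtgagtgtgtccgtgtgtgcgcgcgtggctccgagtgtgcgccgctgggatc
The capitals in Cxcl1, Cxcl2 and Ccl9 are matches to a form of the NF-kB motif, GGG and TTTCC with any 2 bases between, searched on both strands as all motifs here. Cxcl1 and Cxcl2, neighbours on chromosome 5 that both attract neutrophils through Cxcr2, each held 2 of them, at 89 to 80 and 71 to 62 bases before the start in Cxcl1 and at 97 to 88 and 78 to 69 bases in Cxcl2. Ccl9 held 1, at 35 to 26 bases. This motif was in 1.41% of the 32851 promoters in the table. The capitals in Cxcl14 mark TTTC and TTTC with any 2 bases between, the core of the interferon response element, printed as their reverse complement at 172 to 163 bases before the start, as are the first match in Cxcl1 and the one in Ccl9; this motif was in 2.98% of promoters, and also in those of Cxcl10 and Ccl19. The STAT6 motif, TTC and GAA with any 4 bases between (5.85% of promoters) was in that of Ccl17, and TGCTGAC, a half-site bound by MAF proteins (3.81% of promoters), was in that of Ackr3. No motif here overlapped another, promoters were found for 21 of the 26 described genes (not Ccl2, Ccl4, Ccl5, Ccl11 or Cxcl16), and a match is a description of letters, not a bound site.

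On the Mixed background, the chemokine ligands moved in both directions with the S64F allele. The inflammatory CC ligands Ccl3, Ccl4, Ccl5 and Ccl12 fell, and Ccl11, Cxcl14, Cx3cl1, Ccl2, Cxcl12, Ccl9, Ccl27a and Cxcl16 rose. These 12 genes were called at a Benjamini-Hochberg adjusted p under 0.05 in limma, 46.2% of the 26 described genes, where 41.4% of all 19191 genes tested were called. By direction, 8 rose (30.8%, against 28.3% of all genes) and 4 fell (15.4%, against 13.1%), so these shares lay close to those of the whole table. The median log2 difference was 0.23 over the 26 genes and 0.08 over all genes. All 12 were ligands; no receptor of the 5 was called, and none had an unadjusted p under 0.05 in limma or in the exact permutation test. Another scaling of the TPM values (median-of-ratios), which shifted the median of all genes by -0.10, called 5 of the 26 higher and 5 lower. Of all 19191 genes it called 3834 higher and 4081 lower, against 5424 and 2522 as deposited. Ccl2, Cxcl12 and Cxcl16 were no longer called and Ccl25 was added among the lower.

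Of the 4 ligands that fell, Ccl12 (0.26) and Ccl5 (0.27) had the lowest ratios of mean TPM, Mixed Het to Mixed WT. Ccl3 and Ccl4 had ratios of 0.42 and 0.43. In log2(TPM + 1), which understates changes of low genes, the greatest fall was that of Ccl3. This ligand of Ccr1, made by activated macrophages among others, was at 17.9, 22.1, 21.7, 13.98 and 12.4 TPM in the 5 Mixed WT mice and ranged from 4.43 to 9.32 with a median of 7.98 in the 6 Mixed Het mice. Every Mixed Het library lay below every Mixed WT library. The difference in log2(TPM + 1), the scale of all differences here, was -1.16 (SE 0.21, limma adjusted p = 0.00016; two-sided exact permutation p = 0.00216, the smallest that 462 splits allow). Its neighbour Ccl4, a chemoattractant of monocytes and T cells, was at 22.4, 30.8, 44.3, 24.7 and 12.1 TPM in Mixed WT mice and ranged from 8.92 to 14.3 with a median of 12.3 in Mixed Het mice. Only Mixed WT replicate 5, at 12.1 TPM, came within the Het range. Ccl4 fell by 1.05 (SE 0.26, adjusted p = 0.00259). The annotated spans of Ccl3 and Ccl4 overlap in RefSeq, while in GENCODE M21 no gene lies over either of them. The annotation used for counting is not given, so whether reads were shared between them is uncertain.

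Ccl5, a chemoattractant of T cells and monocytes, was at 0.496, 1.301, 4.29, 1.73 and 0.597 TPM in Mixed WT mice and ranged from 0.135 to 0.742 with a median of 0.495 in Mixed Het mice. The groups overlapped, and the highest value, 4.29, came from Mixed WT replicate 3. The difference was -0.74 (SE 0.22, adjusted p = 0.00974), -0.45 without that library, where it was still called. Fitted on the Mixed mice alone it was not called (adjusted p = 0.0520). Ccl12, a mouse ligand of Ccr2, was at 0.7396, 1.59, 2.03, 2.04 and 0.904 TPM in Mixed WT mice and ranged from 0.148 to 0.744 with a median of 0.327 in Mixed Het mice. The highest Het library, at 0.744, was the single one to reach the WT range. Ccl12 fell by 0.81 (SE 0.19, adjusted p = 0.00195). Ccl5 reached 0.5 TPM in 4 Mixed WT libraries and 3 others, and Ccl12 in 5 and 3. Both thus entered the tested set mostly through the group in which they were high. With a TPM of at least 1 as the filter, Ccl5 was not among the genes called.

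**Figure D1:**
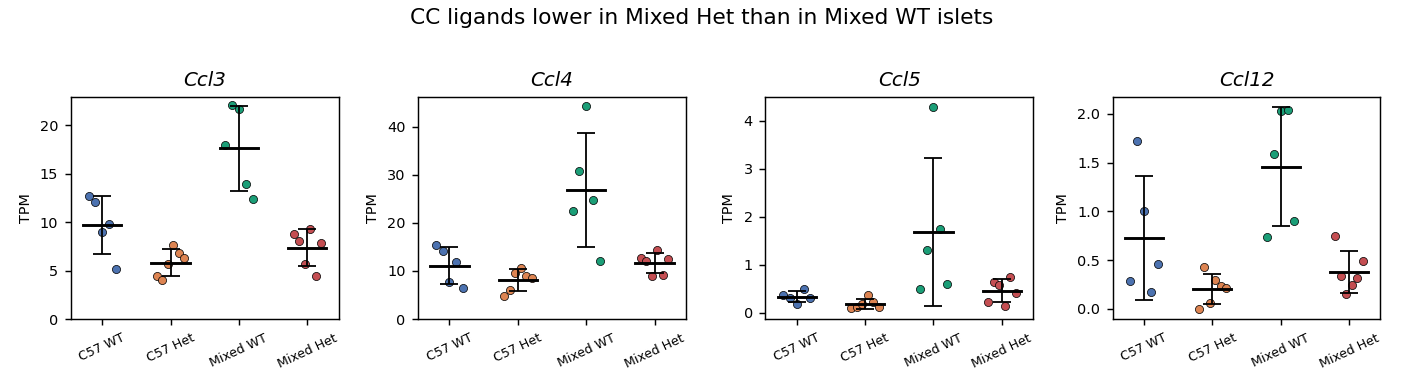
TPM of Ccl3, Ccl4, Ccl5 and Ccl12 in each library by group (5 mice in each WT and 6 in each Het group); the thick bar is the mean and the whiskers are 1 SD. Mixed WT islets held the highest mean of each gene, and for Ccl3 the 6 Mixed Het libraries, at 4.43 to 9.32, lie below all 5 Mixed WT libraries.

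Of the 8 ligands that rose in Mixed Het islets, Ccl11 and Cxcl14 showed the greatest ratios of mean TPM. Ccl11 (eotaxin), which attracts eosinophils through Ccr3, was at 0.4405, 1.15, 1.65, 1.099 and 0.815 TPM in Mixed WT mice and ranged from 2.02 to 20.3 with a median of 4.38 in Mixed Het mice. All 6 Het libraries exceeded all 5 WT libraries, although replicate 5, at 20.3, was far above the other Het mice, which reached at most 4.72. Ccl11 rose by 1.55 (SE 0.34, adjusted p = 0.00099), and by 1.18 without replicate 5, where it was still called. Cxcl14, a ligand made constitutively in many epithelia and stromal cells, was at 0.239, 0.205, 0.383, 0.1302 and 0.241 TPM in Mixed WT mice and ranged from 0.675 to 5.94 with a median of 1.32 in Mixed Het mice. Again the groups did not overlap and replicate 5 was highest. Cxcl14 rose by 1.14 (SE 0.24, adjusted p = 0.000737), and by 0.87 without replicate 5. It reached 0.5 TPM in all 6 Mixed Het libraries but in only 1 of the other 16, so it entered the tested set through the group in which it was high.

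Cx3cl1 and Ccl27a, both abundant, rose by less in ratio. Cx3cl1 (fractalkine) is a membrane-tethered ligand whose receptor, Cx3cr1, marks resident macrophages. It was at 12.7, 15.3, 10.1, 10.01 and 9.799 TPM in Mixed WT mice and ranged from 15.2 to 31.5 with a median of 20.1 in Mixed Het mice. A single Het library, at 15.2, lay below the highest WT library. Cx3cl1 rose by 0.80 (SE 0.15, adjusted p = 0.000158). Ccl27a, a ligand of Ccr10, was at 10.7, 10.4, 10.01, 11.5 and 11.1 TPM in Mixed WT mice and ranged from 13.2 to 19.6 with a median of 14.99 in Mixed Het mice, without overlap. It rose by 0.47 (SE 0.11, adjusted p = 0.00169). Il11ra1 lies over Ccl27a on the opposite strand and Ccl27b is a near copy listed at 0 in all libraries; the strand setting of the counting is not given in the sources used here, so reads of these genes may not be separable.

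Ccl9, Cxcl16, Cxcl12 and Ccl2 rose with overlapping groups. Ccl9, a myeloid ligand of Ccr1, was at 0.261, 0.267, 0.906, 1.08 and 0.4201 TPM in Mixed WT mice and ranged from 0.517 to 2.45 with a median of 1.32 in Mixed Het mice, a difference of 0.56 (SE 0.17, adjusted p = 0.0105). Of the 6 Het libraries, 4 exceeded all WT libraries. Cxcl16, a membrane-bound ligand that also acts as a scavenger receptor, was at 6.797, 6.71, 8.196, 8.88 and 5.37 TPM in Mixed WT mice and ranged from 7.38 to 12.1 with a median of 9.45 in Mixed Het mice, a difference of 0.36 (SE 0.12, adjusted p = 0.0193). Its call was lost without Mixed WT replicate 5, without Mixed Het replicate 5 and under all 3 other scalings of the values. Zmynd15 lies over Cxcl16 on the opposite strand.

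Cxcl12, the stromal ligand of Cxcr4 and Ackr3, was at 3.599, 6.48, 3.77, 3.07 and 3.72 TPM in Mixed WT mice and ranged from 4.78 to 11.3 with a median of 5.31 in Mixed Het mice. All 6 Het libraries were above the WT mean, and 2 of them were above every WT library. The difference was 0.57 (SE 0.22, adjusted p = 0.0443). Ccl2, the monocyte attractant that acts through Ccr2, was at 0.244, 1.04, 1.47, 2.26 and 0.426 TPM in Mixed WT mice and ranged from 1.18 to 5.85 with a median of 1.57 in Mixed Het mice. Only 2 Het libraries, replicates 5 and 6, were above all WT libraries. The difference was 0.68 (SE 0.27, adjusted p = 0.0484), with an exact permutation p of 0.117. The calls of Ccl2 and Cxcl12 were at the edge of the threshold: leaving out single libraries ended the call of Ccl2 in 14 of 22 refits and that of Cxcl12 in 11.

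**Figure D2:**
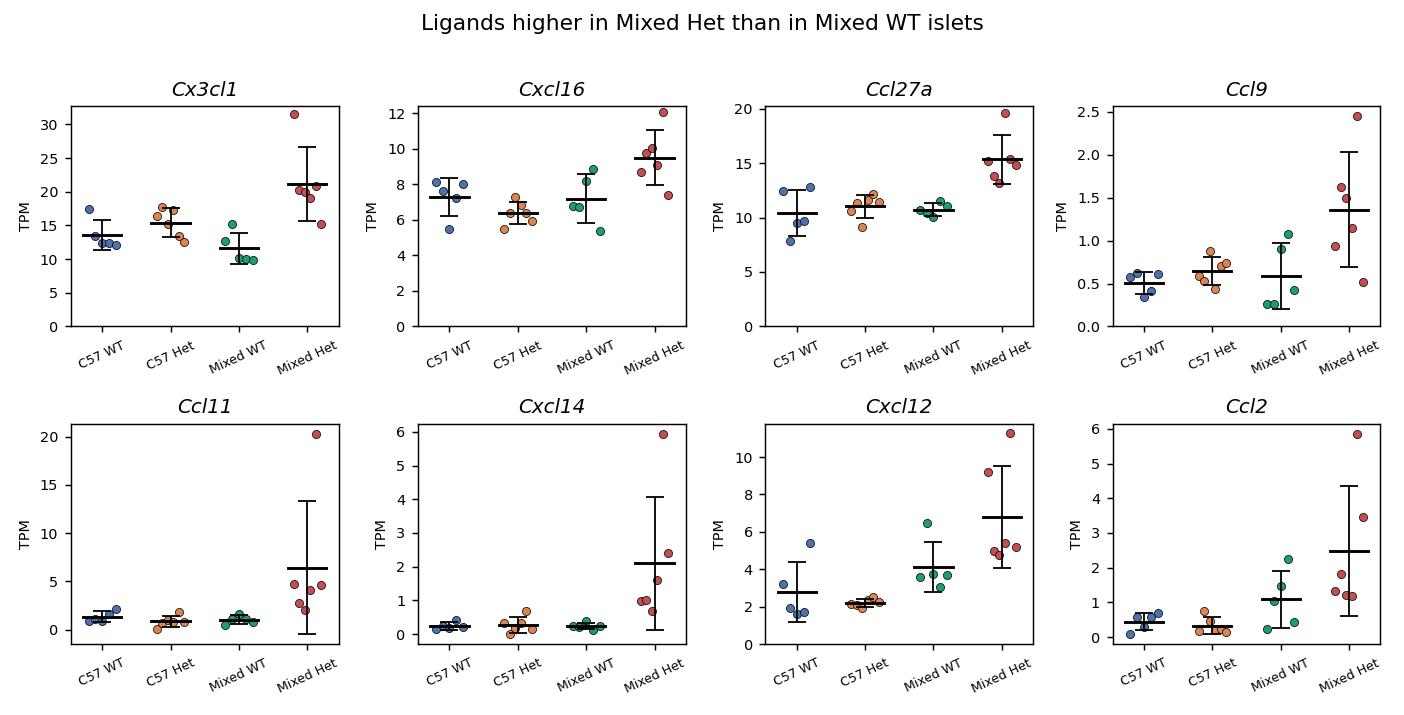
TPM of the 8 ligands called higher in Mixed Het than in Mixed WT islets, by library and group, with the mean (thick bar) and 1 SD (whiskers). Ccl11, Cxcl14 and Ccl27a show no overlap between the Mixed groups, and the highest Mixed Het point of Ccl11 (20.3), Cxcl14 (5.94), Cxcl12 (11.3), Ccl2 (5.85), Ccl9 (2.45) and Cxcl16 (12.1) is the same mouse, replicate 5.

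Groups did not overlap for 4 of the 26 chemokine genes (Ccl3, Ccl11, Ccl27a and Cxcl14), where 21.9% of all genes tested did not overlap between Mixed Het and Mixed WT mice. Without Mixed Het replicate 5, 9 chemokine genes were called, 5 higher (Ccl11, Cxcl14, Cx3cl1, Ccl27a and Ccl9) and 4 lower (Ccl3, Ccl4, Ccl5 and Ccl12); Ccl2 (0.45, limma adjusted p = 0.132), Cxcl12 (0.43, 0.119) and Cxcl16 (0.30, 0.0540) were no longer called. Of the genes still called, Cx3cl1 had a difference of 0.80 without that library, Ccl27a 0.46, Ccl9 0.44, Ccl3 -1.04, Ccl4 -0.99, Ccl12 -0.80 and Ccl5 -0.79.

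Markers of other cell types moved with the Mixed genotype groups as well. Of 9 macrophage markers tested, 9 were higher in Mixed Het than in Mixed WT islets (7 to 8 under the other scalings), and their summed TPM ranged from 107 to 148 in Mixed WT and from 172 to 368 in Mixed Het mice. Of 6 mesenchymal markers tested, 5 were higher, with sums of 31.4 to 62.8 and 58.0 to 367 TPM. Pan-leukocyte markers (3 of 5 higher; sums of 8.65 to 15.9 and 12.8 to 27.0) and dendritic cell markers (2 of 3 higher; sums of 22.4 to 40.6 and 36.9 to 105) overlapped between the groups. Of 7 endothelial markers, 0 were called in limma. T and NK cell markers (2 of 2 tested higher; sums of 1.44 to 2.61 and 3.46 to 4.89 TPM) did not overlap between the groups but stayed low, with Cd3e at 0.0433 TPM on average in Mixed Het mice, and granulocyte and mast cell markers never exceeded 1.17 TPM in sum, with Mcpt4 at 0 in all libraries. Mesothelial markers moved the other way, with 1 of 2 called lower and sums of 73.5 to 147 TPM in Mixed WT and 3.84 to 23.4 TPM in Mixed Het mice. Of 2 tested B cell and lymphoid markers, Cd79a was lower, with sums of 5.86 to 13.5 and 3.01 to 5.28 TPM that did not overlap. Of 4 lymphatic endothelial markers Prox1 and Pdpn were higher and Lyve1 was lower, with sums of 27.1 to 35.8 and 39.0 to 61.3 TPM. Ductal markers (5 of 5 higher, 2 or 3 under the other scalings) and non-beta endocrine markers (5 of 6 higher) rose, beta cell markers (5 of 6 lower) fell, and of 7 acinar markers 0 were called in limma, with sums of 162 to 812 and 565 to 1094 TPM. The part of these cell types in the chemokine differences was not tested.

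**Figure D3:**
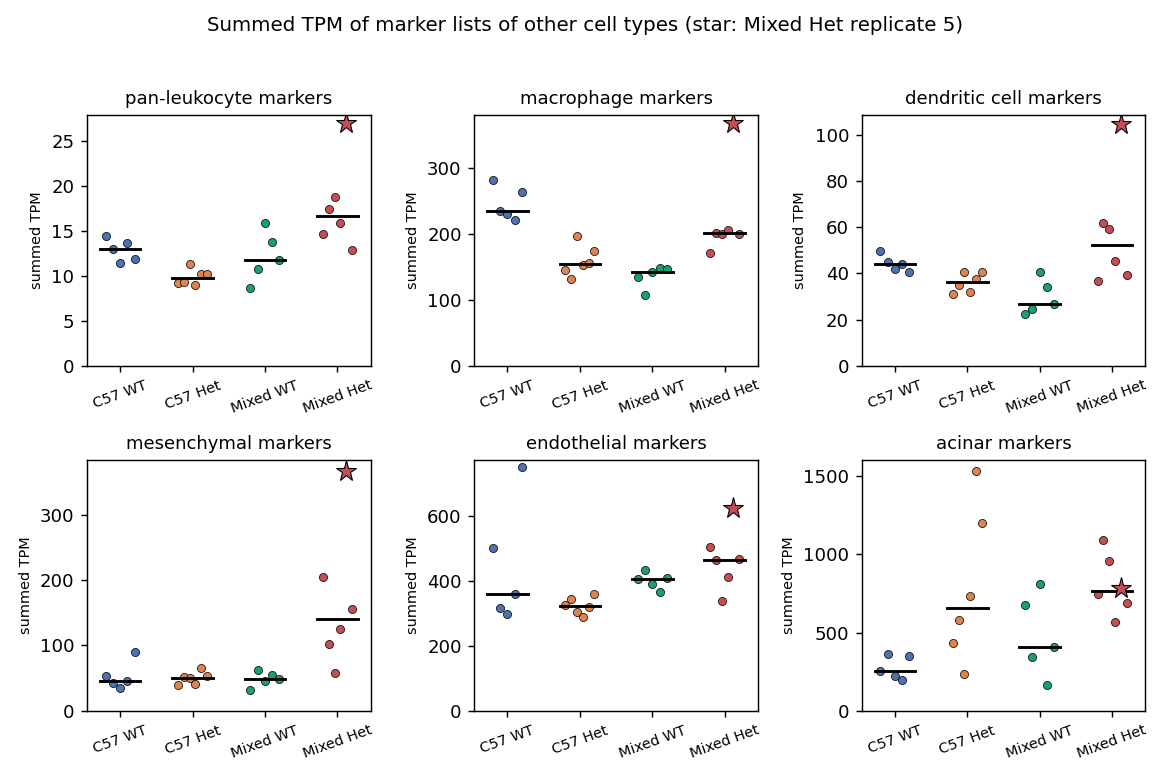
Summed TPM of the marker lists of 6 other cell types in each library, by group; the bar is the group median and the star is Mixed Het replicate 5. Macrophage markers of all 6 Mixed Het libraries, at 172 to 368, lie above those of the 5 Mixed WT libraries, at 107 to 148, while C57 WT libraries lie at 222 to 282.

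On the C57 background, 3 chemokine genes fell in Het islets and none rose. They were Ccl28, Ccl3 and Cx3cr1, 11.5% of the 26, where 34.5% of all genes tested were called (23.2% higher and 11.3% lower). Limma gave 6 of the 26 genes at an unadjusted p under 0.05, a threshold at which the share of all genes was not computed. The median log2 difference was -0.15 over the 26 genes against 0.06 over all genes.

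Ccl28, a mucosal ligand of Ccr10 and Ccr3, was at 7.29, 8.497, 10.4, 9.27 and 4.56 TPM in C57 WT mice and ranged from 1.91 to 3.67 with a median of 3.09 in C57 Het mice. The groups did not overlap. Ccl28 fell by 1.15 (SE 0.25, adjusted p = 0.00131). In Mixed mice it was at 5.001, 3.37, 1.54, 3.76 and 1.503 TPM in WT and ranged from 1.66 to 5.35 with a median of 2.23 in Het mice, a difference of -0.04 (SE 0.25, adjusted p = 0.905). C57 WT mice had the highest mean, 8.01 TPM, with the other 3 groups at 2.99, 3.04 and 2.89 TPM.

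Cx3cr1, the fractalkine receptor, was at 2.64, 2.24, 2.22, 2.49 and 2.63 TPM in C57 WT mice and ranged from 1.504 to 1.91 with a median of 1.66 in C57 Het mice. All 6 Het libraries lay below all 5 WT libraries, with a difference of -0.36 (SE 0.10, adjusted p = 0.00801). In Mixed mice Cx3cr1 was at 2.86, 2.25, 2.29, 2.26 and 2.996 TPM in WT and ranged from 1.903 to 3.36 with a median of 2.75 in Het mice, with a difference of 0.05 (adjusted p = 0.698). Several genes are annotated over the long Cx3cr1 locus on both strands. Summed macrophage markers were lower in C57 Het (131 to 197 TPM) than in C57 WT mice (222 to 282 TPM), without overlap, but of the 9 tested only C1qa and C1qb were called lower. All 7 acinar markers were higher in C57 Het mice, 3 of 7 endothelial markers were lower, and mesothelial sums were 130 to 277 TPM in C57 WT and 13.3 to 42.6 TPM in C57 Het mice. B cell and lymphoid markers (2 of 2 lower; sums of 11.7 to 17.2 and 4.90 to 7.197 TPM) and beta cell markers (2 of 6 lower; 347190 to 418214 and 286015 to 345579 TPM) were lower in C57 Het mice. Non-beta endocrine markers (5 of 6 higher; 37088 to 77256 and 91932 to 138794 TPM) and ductal markers (2 of 5 higher; 127 to 146 and 166 to 283 TPM) were higher. Of 4 lymphatic endothelial markers 1 was higher and 2 were lower, with sums of 26.7 to 37.1 and 44.4 to 53.4 TPM. None of these 5 pairs of sums overlapped, and of 5 pan-leukocyte markers 1 was lower (11.5 to 14.4 and 9.02 to 11.3 TPM, again without overlap). The part of these cells in the C57 differences was not tested.

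Ccl3 was at 12.7, 12.1, 8.97, 9.85 and 5.14 TPM in C57 WT mice and ranged from 3.98 to 7.63 with a median of 6.02 in C57 Het mice. The groups overlapped through WT replicate 5, at 5.14. Ccl3 fell by 0.63 (SE 0.21, adjusted p = 0.0239), the single chemokine gene called lower on both backgrounds. The call was lost when C57 WT replicate 1 or 2, or C57 Het replicate 1 or 2, was left out (adjusted p up to 0.0755), and also when all genes were tested without a filter on low values (adjusted p = 0.0521). Groups did not overlap for 3 of the 26 genes in C57 (Ccl28, Cx3cr1 and, without a limma call, Ccl19), where 19.2% of all genes did not overlap. Ccl19, a ligand of Ccr7, had means of 0.7901 ± 0.626 (SD, n = 5) TPM in C57 WT and 0.193 ± 0.0582 (SD, n = 6) TPM in C57 Het mice (difference -0.52, adjusted p = 0.11).

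The ligands that changed in Mixed mice had smaller differences in log2(TPM + 1) in C57 mice, none of them called in the main fit except Ccl3. Ccl4 was at 15.4, 14.05, 7.78, 11.8 and 6.41 TPM in C57 WT and ranged from 4.77 to 10.7 with a median of 8.72 in C57 Het mice (-0.38, adjusted p = 0.261). Ccl5 was at 0.373, 0.306, 0.173, 0.497 and 0.307 TPM in C57 WT and ranged from 0.0887 to 0.376 with a median of 0.15 in C57 Het mice (-0.17, adjusted p = 0.586). Ccl12 was at 0.286, 1.72, 1.002, 0.178 and 0.458 TPM in C57 WT and ranged from 0 to 0.429 with a median of 0.224 in C57 Het mice (-0.46, adjusted p = 0.0692). Its ratio of mean TPM, Het to WT, was 0.28 in C57 and 0.26 in Mixed mice. Ccl12 was called lower in C57 mice with a pseudocount of 0.1, a total without the most abundant genes and sample weights. Leaving out C57 WT replicate 1 or 4 also gave that call. The direction of these 3 was negative on both backgrounds.

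Ccl11 was at 0.945, 1.09, 0.8802, 1.63 and 2.18 TPM in C57 WT and ranged from 0.118 to 1.88 with a median of 0.812 in C57 Het mice (-0.34, adjusted p = 0.468). Cxcl14 was at 0.1399, 0.2296, 0.181, 0.418 and 0.215 TPM in C57 WT and ranged from 0 to 0.672 with a median of 0.248 in C57 Het mice (0.03, adjusted p = 0.945). Cx3cl1 was at 17.5, 13.5, 12.4, 12.4 and 12.2 TPM in C57 WT and ranged from 12.5 to 17.7 with a median of 15.8 in C57 Het mice (0.17, adjusted p = 0.381). Genotype groups overlapped in C57 mice for each of these genes. Ccl27a was at 12.4, 7.802, 9.53, 9.66 and 12.8 TPM in C57 WT and ranged from 9.15 to 12.1 with a median of 11.4 in C57 Het mice (0.09, adjusted p = 0.566). Ccl9 was at 0.571, 0.62, 0.34, 0.408 and 0.614 TPM in C57 WT and ranged from 0.434 to 0.874 with a median of 0.648 in C57 Het mice (0.12, adjusted p = 0.611). Cxcl16 was at 8.16, 7.62, 5.497, 7.25 and 8.03 TPM in C57 WT and ranged from 5.48 to 7.3 with a median of 6.38 in C57 Het mice (-0.16, adjusted p = 0.312). For these 3 the C57 genotypes overlapped as well. Cxcl12 was at 3.21, 1.92, 1.63, 1.705 and 5.43 TPM in C57 WT and ranged from 1.94 to 2.53 with a median of 2.17 in C57 Het mice (-0.14, adjusted p = 0.658). Ccl2 was at 0.0898, 0.5899, 0.291, 0.587 and 0.691 TPM in C57 WT and ranged from 0.134 to 0.759 with a median of 0.217 in C57 Het mice (-0.13, adjusted p = 0.761).

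Whether the genotype difference itself depended on background was tested with the interaction term. Ccl11 was the single chemokine gene called, 3.85% of the 26 where 6.31% of all genes were called (3.92% with a greater and 2.39% with a lower difference in Mixed mice). Its genotype difference was greater in Mixed than in C57 mice by 1.9 (SE 0.48, limma adjusted p = 0.0245). The interaction of Ccl11 was 1.52 and still called without Mixed Het replicate 5, and it was not called when all genes were tested without a filter on low values (adjusted p = 0.0550). Without that replicate 2 chemokine genes were called, as Cxcl14 was added (0.84, limma adjusted p = 0.0343). Cxcl14 had entered the tested set through the Mixed Het group. Cxcl14 (1.11, adjusted p = 0.0531), Ccl28 (1.11, 0.0607), Cxcl16 (0.53, 0.0644), Cx3cl1 (0.63, 0.0664) and Cx3cr1 (0.42, 0.0779) came near the threshold. An unadjusted limma p under 0.05 was reached by 11 chemokine genes, but the share of all genes at that threshold was not computed. The interactions of Ccl3 (-0.53, limma adjusted p = 0.275), Ccl4 (-0.66, 0.263), Ccl5 (-0.57, 0.258) and Ccl12 (-0.35, 0.437) did not pass. Their calls in Mixed mice are thus not shown to differ from the values in C57 mice.

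The backgrounds were then compared within each genotype; these comparisons use the same mice as the genotype comparisons and are not independent of them. Among WT mice, 5 chemokine genes differed, 19.2% of the 26 where 10.8% of all genes did (5.97% higher and 4.81% lower): Ccl3, Ccl4, Ccl5 and Cxcl1 were higher in Mixed WT than in C57 WT islets, and Ccl28 was lower. The log2 difference was 1.16 for Ccl4 (SE 0.27, adjusted p = 0.00745), 0.85 for Ccl5 (0.23, 0.0177), 0.82 for Ccl3 (0.22, 0.0189) and -1.2 for Ccl28 (0.26, 0.00448). Cxcl1 averaged 1.404 ± 0.536 (SD, n = 5) TPM in C57 and 3.82 ± 1.81 (SD, n = 5) TPM in Mixed mice (0.94, adjusted p = 0.00933). For all 5 genes the groups overlapped by at least 1 library, and 0 of the 26 genes were free of overlap, where 5.97% of all genes were. Ccl3 was not called without C57 WT replicate 5, Mixed WT replicate 2 or Mixed WT replicate 3, and the difference of Ccl5 was 0.57, still called, without Mixed WT replicate 3. Ccl5 reached 0.5 TPM in 4 Mixed WT and 0 C57 WT libraries, and with a TPM of at least 1 as the filter it was not called. Fitted on the WT mice alone, Ccl28 alone was called, and of all genes 864 were called in place of 2069. The cause was not tested. Macrophage marker sums went the other way, at 222 to 282 TPM in C57 WT and 107 to 148 TPM in Mixed WT mice, although of 9 tested markers only Cd68 and C1qa were called lower (median over the 9 of -0.16), and their part in the ligand differences was not tested.

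Among Het mice, 16 chemokine genes were higher in Mixed than in C57 islets and 0 were lower in limma. That was 61.5% of the 26, where 12.9% of all genes were called higher, 6.48% lower and 19.3% in either direction. Ccl17, Ccr2 and Cxcl14 are in this count although they reached 0.5 TPM in 4, 4 and 6 Mixed Het libraries and in 1 other each. They thus entered the tested set through the group in which they were high. With a TPM of at least 1 as the filter, 13 genes were called higher, without Ccl17, Ccr2 and Cxcl14. With 0.49, the median of the 26 genes exceeded that of all genes (0.03). The 16 were the ligands Ccl2, Ccl9, Ccl11, Ccl17, Ccl19, Ccl27a, Cx3cl1, Cxcl1, Cxcl2, Cxcl12, Cxcl14 and Cxcl16 and the receptors Ackr3, Ccr2, Cx3cr1 and Cxcr4. Of the 26 genes, 25 had a positive difference; Ccl28 was the exception (-0.09, adjusted p = 0.8302). At an unadjusted limma p under 0.05, 17 genes passed, again without a computed share of all genes beside them. Without Mixed Het replicate 5, 13 genes were called higher, with Ccl9 (0.36, limma adjusted p = 0.110), Cx3cl1 (0.41, 0.0725) and Cxcl2 (0.65, 0.0541) lost, and the other scalings called 13 or 14. The calls of Ccl9, Ccr2 and Cx3cl1 were each lost in 8, and that of Cxcl2 in 7, of the 22 refits that left out 1 library.

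Ccl11 (1.69, SE 0.32, adjusted p = 0.000957) and the neutrophil attractant Cxcl1 (1.51, SE 0.21, adjusted p = 3.82e-05) had the greatest differences in log2(TPM + 1) between the Het groups. By ratio of mean TPM the order was another. Ccl17 (9.68), Ccl19 (8.41), Cxcl14 (7.68) and Ccl2 (7.54), all at low levels, stood above Ccl11 (7.28) and Cxcl1 (4.54). Cxcl1 averaged 1.17 ± 0.2404 (SD, n = 6) TPM in C57 Het and 5.29 ± 1.43 (SD, n = 6) TPM in Mixed Het mice, without overlap. It was therefore higher on the Mixed background in both genotypes, while its genotype difference was not called on either background (-0.13 in C57, adjusted p = 0.684; 0.44 in Mixed, adjusted p = 0.111). Cxcl2, with the same receptor and the like promoter motifs, averaged 3.67 ± 0.977 (SD, n = 6) TPM in C57 Het and 6.14 ± 0.972 (SD, n = 6) TPM in Mixed Het mice (0.63, adjusted p = 0.0363), also without overlap. Between WT groups Cxcl2 did not pass (0.30, adjusted p = 0.442).

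The Cxcl12 axis was higher in Mixed Het islets at the ligand and at both of its receptors. Cxcl12 differed by 1.22 (SE 0.21, adjusted p = 0.00044). Its signalling receptor Cxcr4 averaged 2.45 ± 0.592 (SD, n = 6) TPM in C57 Het and 4.65 ± 1.202 (SD, n = 6) TPM in Mixed Het mice, a difference of 0.70 (SE 0.15, adjusted p = 0.00258), without overlap. The scavenger receptor Ackr3 was at 6.41, 4.62, 3.56, 5.36 and 11.05 TPM in C57 WT mice and ranged from 3.04 to 6.23 with a median of 3.39 in C57 Het mice. On the Mixed background it was at 8.59, 9.38, 11.01, 11.95 and 8.48 TPM in WT mice and ranged from 4.69 to 12.97 with a median of 8.08 in Het mice. The difference between Het groups was 0.88 (SE 0.22, adjusted p = 0.00645), and 5 of 6 Mixed Het libraries exceeded every C57 Het library. Neither genotype difference of Ackr3 was called (-0.46, adjusted p = 0.123 in C57; -0.25, 0.406 in Mixed).

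Among Ccl2, Ccl12 and their receptor Ccr2, a difference between the Het groups was supported for Ccl2 alone. Ccl2 differed by 1.26 (SE 0.26, adjusted p = 0.00172) and its receptor Ccr2 by 0.52 (SE 0.18, adjusted p = 0.0431). Ccr2 averaged 0.229 ± 0.113 (SD, n = 6) TPM in C57 Het and 0.893 ± 0.947 (SD, n = 6) TPM in Mixed Het mice, where replicate 5 alone was at 2.79. Without that library its difference was 0.29 (limma adjusted p = 0.0484). Ccr2 entered the tested set through the Mixed Het group, so its call is no support for a difference. Ccl12, another ligand of Ccr2, did not pass between the Het groups (0.19, limma adjusted p = 0.522). Cx3cl1 (0.41, adjusted p = 0.0412) and Cx3cr1 (0.45, adjusted p = 0.00239) were higher too, ligand and receptor alike. Ccl19 averaged 1.63 ± 1.296 (SD, n = 6) TPM in Mixed Het mice and exceeded every C57 Het library in each of them (1.02, adjusted p = 0.00421).

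Ccl17, a ligand of Ccr4 on T cells, averaged 0.107 ± 0.137 (SD, n = 6) TPM in C57 Het and 1.04 ± 0.895 (SD, n = 6) TPM in Mixed Het mice (0.78, adjusted p = 0.0167). Ccl17 and Ccr2 each reached 0.5 TPM in 4 Mixed Het libraries and in 1 other, so both entered the tested set through that group. Ccl5, Ccl12 and Cxcl13 likewise reached 0.5 TPM in 3, 3 and 4 libraries outside their highest group. Groups did not overlap for 11 of the 26 genes, where 9.31% of all genes did not. Summed macrophage markers ranged from 131 to 197 TPM in C57 Het and from 172 to 368 TPM in Mixed Het mice, with 6 of 9 tested markers higher (5 without Mixed Het replicate 5). Mesenchymal markers ranged from 39.8 to 64.9 and from 58.0 to 367 TPM, with 6 of 6 higher. Pan-leukocyte markers ranged from 9.02 to 11.3 and from 12.8 to 27.0 TPM without overlap, with 4 of 5 higher. Of the endothelial markers 2 of 7 were higher (0 in limma without replicate 5), of the ductal 2 of 5, of the non-beta endocrine 2 of 6 and of the dendritic cell markers 1 of 3. The part of these cells in the background differences was not tested.

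**Figure D4:**
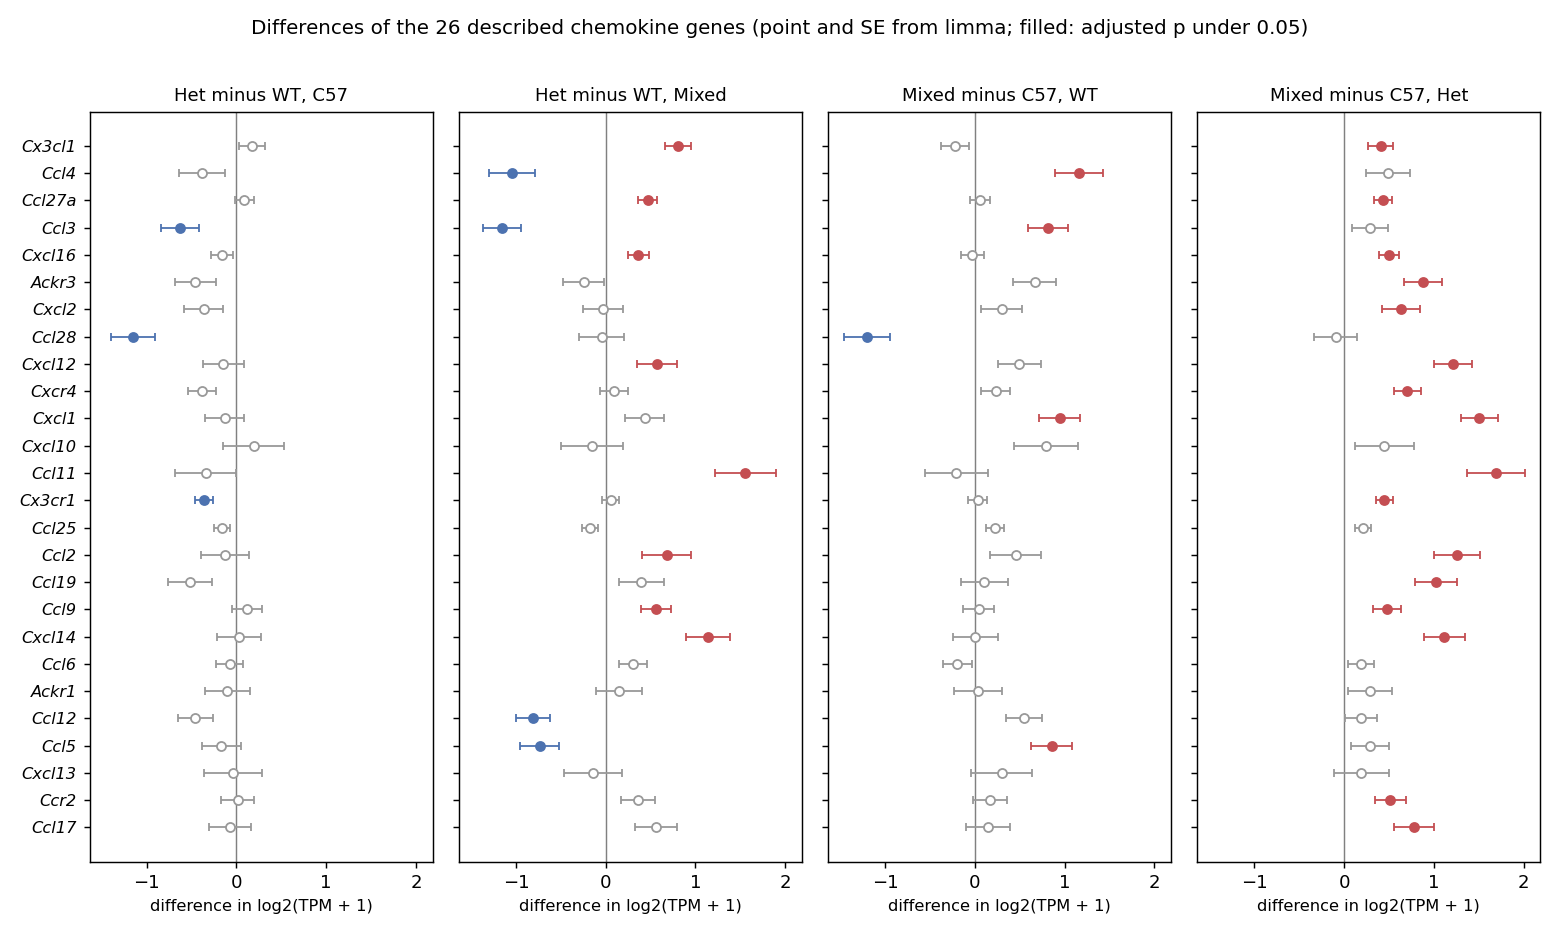
Differences in log2(TPM + 1) of the 26 described chemokine genes in 4 comparisons, ordered by mean level; points are limma estimates, whiskers 1 SE, and filled points have an adjusted p under 0.05 (red higher, blue lower). In the comparison of Mixed with C57 Het mice 16 points are filled and all lie to the right of 0, while Het minus WT in Mixed has 8 on the right and 4 on the left.

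**Figure D5:**
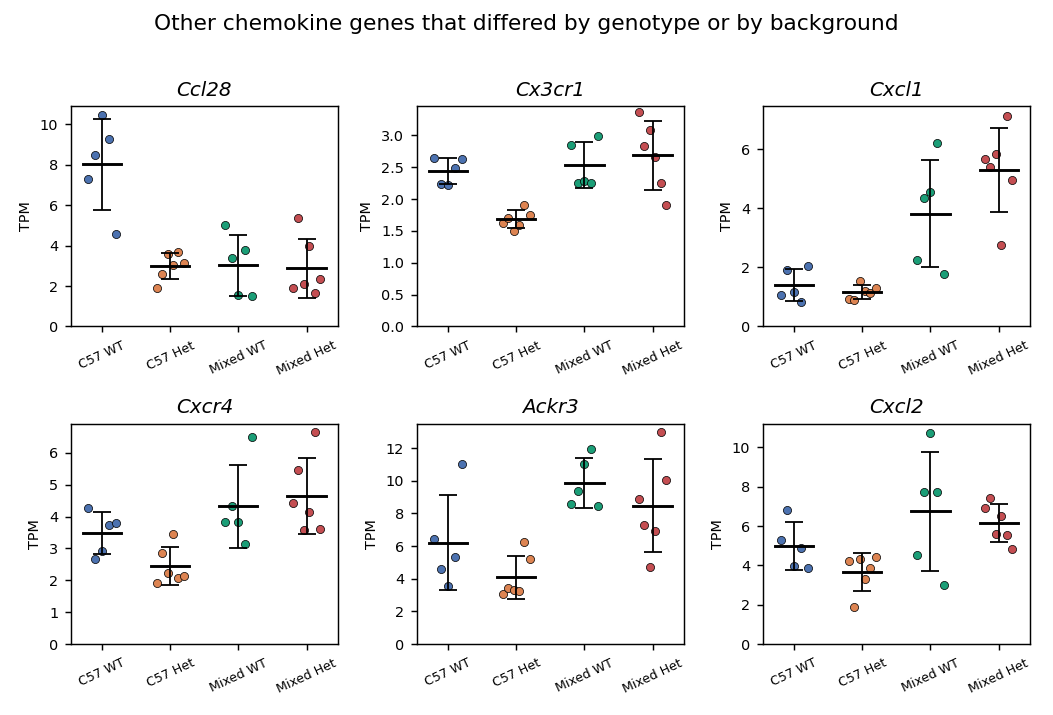
TPM of Ccl28, Cx3cr1, Cxcl1, Cxcr4, Ackr3 and Cxcl2 by library and group, with the mean (thick bar) and 1 SD (whiskers). Ccl28 is highest in C57 WT islets (4.56 to 10.4), the mean of Cx3cr1 is lowest in C57 Het islets, and the other 4 genes have a lower mean in both C57 groups than in the Mixed groups.

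The remaining described genes passed in no comparison. Cxcl10, the interferon-induced ligand of Cxcr3, averaged 1.49, 1.84, 3.91 and 3.01 TPM in the WT and Het mice of C57 and the WT and Het mice of Mixed. Ccl25, the ligand of Ccr9, averaged 1.66, 1.38, 2.102 and 1.74 TPM in the same order; its Mixed genotype difference of -0.18 was called lower under the 3 other scalings only. Its C57 genotype difference of -0.16 was called lower with median-of-ratios scaling and with a total without the most abundant genes. With sample weights Ccl25 was called between the WT groups. Every Mixed Het library exceeded every C57 Het library in Ccl25 (0.21, limma adjusted p = 0.0988). Ccl6, a myeloid ligand beside Ccl9, averaged 0.742, 0.643, 0.526 and 0.898 TPM. For these 3 genes the genotype groups overlapped on both backgrounds. Cxcl13, the B cell attractant, averaged 0.372, 0.323, 1.25 and 0.552 TPM, with Mixed WT replicate 4 alone at 5.50. Ackr1, an atypical receptor of venules and red cells, averaged 0.673, 0.497, 0.656 and 0.891 TPM.

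Gene position did not sort the ligands by direction. On chromosome 11, which holds 14 of the 61 genes and 9 of the 26 described, the first cluster runs Ccl2, Ccl7, Ccl11, Ccl12, and in Mixed Het mice Ccl2 and Ccl11 rose while Ccl12 fell. In the same chromosome's second cluster the order is Ccl5, Ccl9, Ccl6, Ccl3, Ccl4, and Ccl9 rose while Ccl5, Ccl3 and Ccl4 fell. The order was read from RefSeq, which matched 61 of 61 genes. Other annotated genes lie over Ccl2 (Gm17268), Ccl6 (E230016K23Rik), Ccl19 (4930578G10Rik), Ccl25 (Elavl1), Cxcl10 (Art3) and Ackr1 (Cadm3), whose reads may not be separable from theirs.

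The 35 silent genes comprised 18 ligands and 17 receptors. Those just under the threshold were the atypical receptor Ackr2 and the receptor Ccr1, each at 0.5 TPM in 4 libraries, with highest values of 0.838 and 0.828; those just inside it were Ccl17, Ccr2 and Cxcl13, in 5 libraries each. Silent genes with a highest value above 0.5 TPM also included Ccl21a (2.37), Ccl22 (1.59), Ccl24 (1.33), Ccl7 (1.20), Ccl8 (0.989), Ccr7 (0.678) and Cxcl17 (0.530). For Ccl22, Ccl24, Ccl7, Ccr1 and Ccr7 that highest value came from Mixed Het replicate 5. Ccr10 (0.391), Cxcl9 (0.290), Cxcl11 (0.277), Xcl1 (0.238), Ccr8 (0.221), Cxcr3 (0.218), Ccl20 (0.155), Cxcl5 (0.153), Ackr4 (0.138), Cxcr5 (0.106) and Cxcr6 (0.102) peaked lower. Cxcr2 (0.0687), Ccr4 (0.0560), Ccr1l1 (0.0438), Ccr3 (0.0401), Ccr6 (0.0328), Ccr9 (0.0303), Cxcl3 (0.0247) and Cxcl15 (0.0197) stayed under 0.1 TPM. Cxcr1, Ccl21b, Ccl21d, Ccl27b, Ccl26 and Ccl1 were listed at 0 in every library; Ccl21a, Ccl21b and Ccl21d are near copies whose reads may be shared out unevenly.

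Genes that work with chemokines were read from lists chosen for this pathway. Their counts stand beside the shares of all genes tested, which were 28.3% higher and 13.1% lower in Mixed Het islets (median 0.08) and 23.2% higher and 11.3% lower in C57 Het islets (median 0.06). These shares hold for the values as deposited only. Under the 3 other scalings, 3834 to 4554 of the 19191 genes were higher and 3609 to 4081 lower in Mixed Het islets. In C57 Het islets they were 3217 to 3795 higher and 3011 to 3470 lower. Of 14 tested genes that bind, cleave or display chemokines, 7 rose and 2 fell in Mixed Het islets (median 0.27). Under the other scalings 5 or 6 were higher and 2 or 3 lower (medians 0.14 to 0.17), and without Mixed Het replicate 5, 6 were higher and 1 lower. In C57 Het islets 2 rose (median -0.05), which under the other scalings became 0 or 1 higher and 1 to 3 lower. Sdc1, a heparan sulfate proteoglycan that holds chemokines at the cell surface, rose from 1.01 to 3.32 TPM in Mixed mice (1.07, adjusted p = 2.92e-06). Cd74, a partner of MIF and of major histocompatibility class II, rose from 97.4 to 170 TPM (0.77, adjusted p = 0.00113) and Cmklr1, the chemerin receptor, from 0.783 to 2.06 TPM (0.75, adjusted p = 6.97e-05). All 3 also had a called interaction, with adjusted p of 0.0281, 0.0371 and 0.0065, where 3.92% of all genes had a greater difference in Mixed mice. Without Mixed Het replicate 5, Cmklr1 alone kept the call (0.79, adjusted p = 0.00742), and the values were 0.68 for Sdc1 (0.0517) and 0.74 for Cd74 (0.0585).

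Of 29 tested genes of signalling below chemokine receptors, 15 rose and 3 fell in Mixed Het islets (median 0.28; all genes 28.3% and 13.1%). Under the other scalings 12 or 13 were higher and 4 or 5 lower (medians 0.17 to 0.23), and without Mixed Het replicate 5, 14 were higher and 3 lower. In C57 Het islets 10 rose and 3 fell (median 0.05; all genes 23.2% and 11.3%), with 7 or 8 higher and 4 to 8 lower under the other scalings. Tiam1, an activator of Rac, rose from 1.98 to 5.87 TPM in Mixed mice (1.18, adjusted p = 2.67e-06) and from 1.53 to 2.79 TPM in C57 mice (0.58, adjusted p = 0.00483). The G protein subunit gene Gng2 rose by 1.02 in Mixed (5.51e-06) and 0.75 in C57 mice (0.000313). Grk3, a kinase that desensitises such receptors, fell by 0.93 in Mixed (6.99e-06) and 0.34 in C57 mice (0.0463). These genes serve many receptors besides those of chemokines.

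Of 20 genes of NF-kB and inflammatory cytokine signalling, 7 fell and 2 rose in Mixed Het islets (median -0.45), where 13.1% of all genes fell and 28.3% rose. Under the other scalings 10 or 11 were lower, where 3609 to 4081 of all 19191 genes were, against 2522 as deposited. In C57 Het islets 4 fell and 1 rose (median -0.01), where 11.3% of all genes fell and 23.2% rose. The other scalings gave 4 lower and 0 or 1 higher, where 3011 to 3470 of the 19191 genes were lower and 3217 to 3795 higher. Tnfaip3, a target and inhibitor of NF-kB, fell from 25.1 ± 14.8 (SD, n = 5) to 8.59 ± 1.74 (SD, n = 6) TPM in Mixed mice (-1.17, adjusted p = 0.0225). The NF-kB subunit genes Rel (-1.13, adjusted p = 0.00453) and Nfkb2 (-0.86, adjusted p = 0.0235) fell as well, with Mixed WT means of 7.24 and 19.2 TPM and Mixed Het means of 2.18 and 8.71 TPM. Mixed WT mice held the highest mean of these 3 genes, as they did for Ccl3, Ccl4, Ccl5 and Ccl12. A link between these genes and the ligands was not tested.

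Of 15 tested genes of interferon and type 2 cytokine signalling, 7 rose and 2 fell in Mixed Het islets (median 0.18), where 28.3% of all genes rose and 13.1% fell. Under the other scalings 5 or 6 were higher and 3 lower (medians 0.05 to 0.08), and without Mixed Het replicate 5, 6 were higher and 2 lower. In C57 Het islets 3 rose and 2 fell (median 0.02; all genes 23.2% and 11.3%), with 2 or 3 higher and 3 or 4 lower under the other scalings. Irf1, an interferon-induced transcription factor, fell from 119 to 55.7 TPM in Mixed mice (-1.03, adjusted p = 0.000575). Il4, which encodes a cytokine that induces Ccl11 and Ccl17 in many cells, was listed at 0 in all 5 Mixed WT libraries and ranged from 0.423 to 2.94 TPM in Mixed Het mice. In C57 mice it did not exceed 0.0342 TPM in WT and ranged from 0.131 to 1.49 TPM in Het mice. Because Il4 did not reach 0.5 TPM in any WT library, it entered the tested set through the Het groups alone, and its place in these counts is no support for a difference. Il13ra1, a receptor chain for such cytokines, rose on both backgrounds, with differences of 0.70 for C57 (0.000492) and 0.56 for Mixed mice (0.00219).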

How the data were processed

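Poly(A) RNA of islets from 22 mice was sequenced as paired reads, per the labels' protocols. The authors deposited 1 table of TPM values with 57010 genes, each column summing to 1000000. Per the submitters' processing notes, STAR 2.7.10b, MultiQC 1.7 and the build mm39 were used; the counting tool, strand setting and annotation are not given in the sources used here. Sequencing depth cannot be read from TPM values and is unknown here, so intervals and floors that need counts were not computed. TPM also divides by a total, so a fall of very abundant transcripts raises the rest.

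Columns were matched to samples by their labels, with 0 value columns unused and 0 pairs of identical columns. Replicates are separate mice, numbered in accession order. The age of 5.5 weeks is that of the series design. The scale was log2(TPM + 1), on which changes of low genes are understated. The 19191 genes that reached 0.5 TPM in 5 or more samples entered limma 3.58.1 in R 4.3.3 (lmFit, eBayes with trend), with 4 group means over 22 samples. Contrasts were Het against WT on each background, their interaction, and Mixed against C57 in each genotype, with Benjamini-Hochberg adjustment over all genes tested and a threshold of 0.05. Single genes were also compared by two-sided exact permutation over all splits. Lists are described by counts and medians, without a test. Values in every sample are given for described chemokine genes called in a genotype contrast or the interaction and for the 6 with the highest mean TPM; from each pathway list, the 3 called genes with the greatest absolute difference in a genotype contrast are named. The chemokine genes and all lists were chosen with earlier results of these data known. One silent gene is counted but not reported here by name. Overlapping genes were read from GENCODE M21, and for Ccl3 and Ccl4 from RefSeq too.

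The model and the permutation test were tested on simulated data. A log2 change of 1 was added to 200 genes in both Het groups. Limma called 90.5% of them in Het against WT in C57 mice and 91% in Mixed mice. The interaction and the background contrasts held no added change and gave 0 calls, so detection there was not tested. Alternatives were a pseudocount of 0.1, a TPM of at least 1, no filter, quantile normalization, median-of-ratios scaling, totals that leave out the 13 genes above 1% of any sample, fits on the contrast's samples alone, eBayes without trend, sample weights, an acinar covariate, an adjusted p of 0.01 and leaving out each mouse in turn.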

Additional observations from a re-analysis of the deposited data

Results flagged for a closer look

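Within groups, 13 of 104 combinations of chemokine gene and group held a mouse whose gap to the next one was large for the group's range by Dixon's criterion. Chance alone meets it in about 1 of 20 groups of normally distributed values. The criterion was applied to TPM without logs, and the genes share the same mice, so the 13 cannot be weighed against that rate. Mixed Het replicate 5 was such a mouse for 5 genes: Ccl11 (20.3 TPM), Cxcl14 (5.94 TPM), Ccr2 (2.79 TPM), Ccl6 (1.77 TPM) and Cxcl13 (1.42 TPM). Mixed Het replicate 1 was high in Cx3cl1 (31.5 TPM) and Ccl19 (4.15 TPM), and Mixed Het replicate 4 in Ccl27a (19.6 TPM). Mixed WT replicate 4 was high in Cxcl13 (5.50 TPM) and Ccl17 (1.39 TPM), and Mixed WT replicate 2 in Cxcl12 (6.48 TPM). Among C57 mice, WT replicate 1 was high in Cx3cl1 (17.5 TPM) and Het replicate 6 in Ccl17 (0.370 TPM). All 13 were the highest value of their group.

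The genotype difference of Ccl11 differed between backgrounds by 1.90 on the log2 scale in the interaction test.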

How the results depend on the processing

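Counts of chemokine genes called stayed within 1.5 times their reported value for Het against WT in Mixed mice (12; 9 to 14 with 1 mouse left out) and for Mixed against C57 Het mice (16; 12 to 16 with 1 mouse left out). The other counts were small and moved. For Het against WT in C57 mice, 3 became 5 with a pseudocount of 0.1, 5 with median-of-ratios scaling, 6 with a total without the most abundant genes and 5 with sample weights (1 of them higher, Ccl27a), and 2 to 4 with 1 mouse left out. For the interaction, 1 became 2 with a pseudocount of 0.1, 0 without a filter, 3 under each of the 3 other scalings, 4 with sample weights and 0 at an adjusted p of 0.01, and 1 to 4 with 1 mouse left out. For Mixed against C57 WT mice, 5 became 1 with the contrast's samples alone, 8 with sample weights, 3 with the acinar covariate and 3 at an adjusted p of 0.01, and 4 to 6 with 1 mouse left out. A stricter threshold can only lower a count. For the other alternatives, the cause of the change was not tested.

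Among 52 differences of single genes, 511 refits under other settings kept direction and call in 456, lost the call in 40, gained it in 4 and reversed the direction in 11; with 1 mouse left out, 1144 refits gave 1066, 65, 3 and 10. The reversals concerned differences that were not called. In C57 mice they were Ccl2 (0.0946 with the acinar covariate), Ccl27a (-0.035 with quantile normalization, -0.0156 with a total without the most abundant genes, -0.00117 to 0.161 with 1 mouse left out), Cxcl12 (0.148 with sample weights, -0.253 to 0.0693 with 1 mouse left out) and Cxcl14 (-0.0558 with a pseudocount of 0.1, -0.0607 with the acinar covariate, -0.0544 to 0.0938 with 1 mouse left out). In Mixed mice they were Cx3cr1 (-0.0436 with median-of-ratios scaling, -0.0362 with a total without the most abundant genes, -0.00491 with sample weights, -0.000871 with the acinar covariate) and Ccl28 (0.00163 with the acinar covariate, -0.200 to 0.121 with 1 mouse left out).

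Without a filter, 55 chemokine genes entered the test, and the genes called included the silent Ccr1 and Cxcl17 in Mixed Het against Mixed WT mice. Scaling moved the split of all genes called: Het against WT gave 4457 higher and 2162 lower in C57 mice as deposited and 3556 and 3351 with median-of-ratios scaling, and 5424 and 2522 against 3834 and 4081 in Mixed mice. Without known depth, the counting error of genes near 0.5 TPM cannot be given. No paired analysis was possible because the replicate numbers only follow accession order and pair no mice.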
